A study of Rattus norvegicus with 18 samples.

Results

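Tiam1 was described from the methylation of its CpGs on rat chromosome 11, in a window of 73716 bases of rn6 that reached from chr11:29938284 to chr11:30011999. The window took in the 2 Tiam1 sites chr11:29963284 and chr11:29986999 with 25000 bases on each side. Both sites are annotated in an intron of Tiam1 by the study's site list. What the annotation holds in the parts of the window beyond the 2 sites was not analysed here, and in the GRCr8 gene table the nearest genes to Tiam1 are Krtap11-1 on one side and Sod1 on the other. Members were the CpGs with at least 10 reads at a cytosine in at least 1 striatum, with the strands of a CpG added up. These were 143 of the 1451601 CpGs of the whole data set, while 255 CpGs of the window had at least 1 read. The 2 sites were chosen by their measured methylation difference in the study between L-DOPA + R and UNT, and 29986999 also by that between L-DOPA + R and L-DOPA. Their values in these 2 comparisons, and those of all other CpGs of the window in the same comparisons, are therefore given as a description. Counts from the fit over all CpGs stand there beside the same counts of the whole data set, and nothing is read from them. L-DOPA against UNT, lesioned against control striatum, and the difference between the sides were not used in the choice and were tested. In L-DOPA against UNT the 2 sites were left out of the test, since the choice used their UNT reads.

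Both striata of 9 male Wistar rats were measured by reduced representation bisulfite sequencing (RRBS), with 3 rats in each of 3 groups, UNT, L-DOPA, and L-DOPA with Riluzole (L-DOPA + R). In all 9 rats, the controls included, the dopaminergic neurons of one side had been lesioned with 6-OHDA in the medial forebrain bundle on postnatal day 21. From postnatal day 35 to 49 and again on day 53, UNT rats received saline, L-DOPA rats received L-DOPA with benserazide, and L-DOPA + R rats received Riluzole in addition, and the striata were then collected. The striatum opposite to the injected side is called control, so that each treatment had 3 control and 3 lesioned striata, and no unlesioned rat and no group with Riluzole alone was analysed here. Control and lesioned striata with the same replicate number were taken as those of one rat, which no label states, and all values per rat rest on this.

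Tiam1 is a guanine nucleotide exchange factor that activates the small GTPase Rac1. In neurons it is known to link NMDA receptor activity to the remodelling of actin in dendritic spines and dendrites. In the striatum, most neurons are spiny projection neurons that receive glutamate and dopamine input on these spines. Methylation of CpGs in the body of a gene is often high, while CpGs in active promoters and enhancers are often low. The values below are methylation levels of DNA, and neither the expression of Tiam1 nor the identity of the cells can be read from them. Each level is an average over all cells of a striatum, so that another mix of cells and another level within the same cells cannot be told apart.

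The UNT files listed 30304520 to 49146750 calls per striatum, those of L-DOPA 18480983 to 30778121 and those of L-DOPA + R 19402864 to 25865285. UNT striata covered 89 to 126 CpGs of the window, L-DOPA striata 58 to 98 and L-DOPA + R striata 60 to 86. The libraries of the treatments also differed in where calls were listed along a read. The plus strand cytosines 29942344 and 29992623, each 50 bases after a called cytosine on that strand, had no read in any of the 6 UNT striata but 176 and 155 reads in all in the striata of the other treatments. Neither of the 2 Tiam1 sites lay 46 to 50 bases past a called cytosine. The part of depth and of this difference in the treatment comparisons was not tested beyond the alternatives given in the closing section.

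Of the 143 CpGs, 28 were covered in all 18 striata, 60 in 4 or more striata of each treatment, and 17 in a single striatum. Among the 60 CpGs, the median methylation was 68.5%, 8 CpGs were below 20%, 34 lay between 20% and 80% and 18 were above 80%. Over the 556340 CpGs of the data set with the same coverage, the median was 48.1%, with 42.6% of the CpGs below 20%, 21.8% between 20% and 80% and 35.7% above 80%. Levels in the middle range thus made up 56.7% of the Tiam1 CpGs, as a description of CpGs that lie close together.

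**Figure D1:**
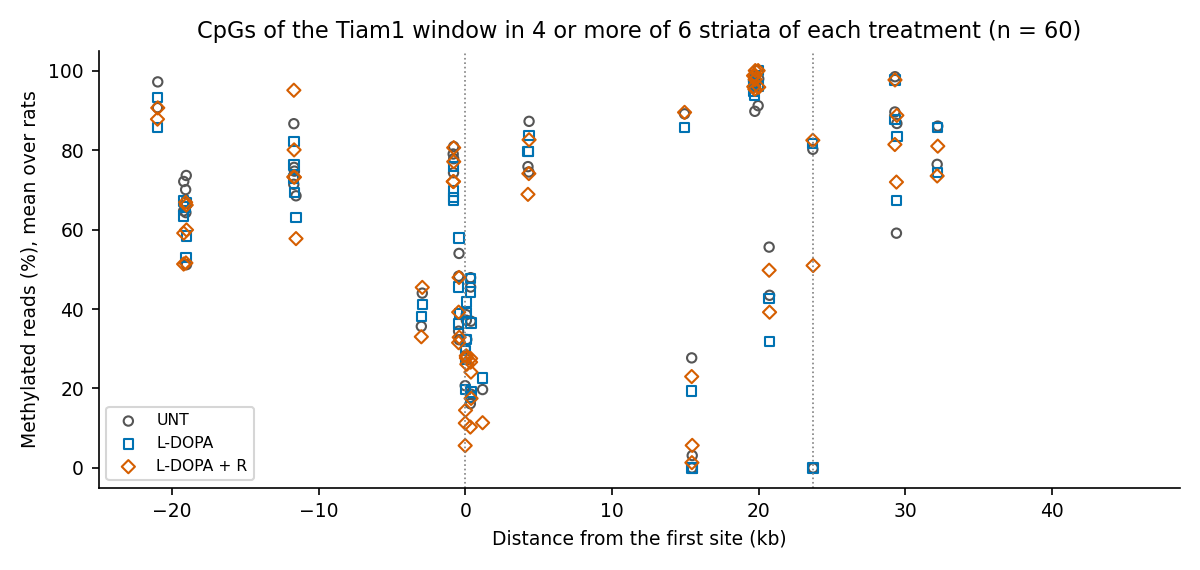
Methylation (percent of reads, mean over the rats of a treatment) of the 60 CpGs covered in 4 or more of 6 striata per treatment, against the distance from the first site, 29963284, in kb. Symbols are treatments and dotted lines mark the 2 sites. Levels are low around the first site and mostly high elsewhere, and at the second site the L-DOPA + R symbol stands apart from UNT and L-DOPA at 0.

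Along the window, stretches of CpGs less than 200 bases apart were compared by their mean over the CpGs covered in all 9 rats. High levels were found at chr11:29982936-29983326, with 95.6% ± 1.56 in UNT, 96.9% ± 0.3496 with L-DOPA and 97.8% ± 1.66 with L-DOPA + R (SD, n = 3 rats each). At chr11:29992573-29992710 the levels were 83.5% ± 3.44, 84.0% ± 6.79 and 84.9% ± 0.893 in the same order. At chr11:29951483-29951739 they were 75.4% ± 10.5, 72.7% ± 4.49 and 75.9% ± 2.85. In each of these 3 stretches the treatment means lay within 4 points of each other. Lower levels were found from 29960285 to 29964599, a part that holds the first site, except at chr11:29962457-29962546 with a median of 71.99%. Another low point was the pair 29978734 and 29978756, where the median striatum was at 0% and the highest of 14 striata reached 6.67% and 14.3%, on minus strand reads alone. At chr11:29984001-29984139 the rats of one treatment differed widely, with 49.5% ± 13.7 in UNT, 37.3% ± 13.6 with L-DOPA and 44.5% ± 15.6 with L-DOPA + R.

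At the second site, chr11:29986999, no methylated read was found in any UNT or L-DOPA striatum, while about as many methylated as unmethylated reads were found in L-DOPA + R. The control striata of UNT rats 1, 2 and 3 had 0 methylated of 38, 37 and 49 reads, and the lesioned striata 0 of 57, 36 and 36. In L-DOPA, the control striata had 0 of 23, 12 and 25 reads and the lesioned striata 0 of 29, 17 and 21. The 0 of 253 reads in UNT allow a level of up to 1.19%, and the 0 of 127 reads in L-DOPA one of up to 2.36%, taken as 3 reads of the total and for the counting error of the summed reads only. In L-DOPA + R, the control striata of rats 1, 2 and 3 were methylated at 55.6% (18 reads), 61.1% (18 reads) and 40% (10 reads). The lesioned striata of the same rats were methylated at 66.7% (12 reads), 30.8% (13 reads) and 47.1% (17 reads). The L-DOPA + R striata therefore did not overlap with any other striatum, on both sides of all 3 rats. Summed over the striata, 45 of 88 reads were methylated, or 51.1% with a 95% interval of 40.2% to 61.9% (exact Clopper-Pearson, counting error only), and the mean over the 6 striata was 50.2% ± 13.5 (SD). The difference was 51.1 points to UNT and to L-DOPA alike, since both were at 0, and these comparisons share the L-DOPA + R striata.

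The CpG next to it, chr11:29986980, lies 19 bases before the second site and is read by the same plus strand reads. Its level was 81.0% ± 9.92 in UNT, 81.0% ± 10.4 with L-DOPA and 81.6% ± 11.2 with L-DOPA + R (SD, n = 6 striata each). Striata ranged from 64.9% to 89.5% in UNT, from 72.7% to 100% with L-DOPA and from 60% to 91.7% with L-DOPA + R, and the 3 groups overlapped. The step at the second site was thus not shared by its neighbour. No minus strand read was listed at the second site in any striatum, so that all values there rest on the plus strand. Whether the DNA sequence at this site is the same in all rats was not tested.

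**Figure D2:**
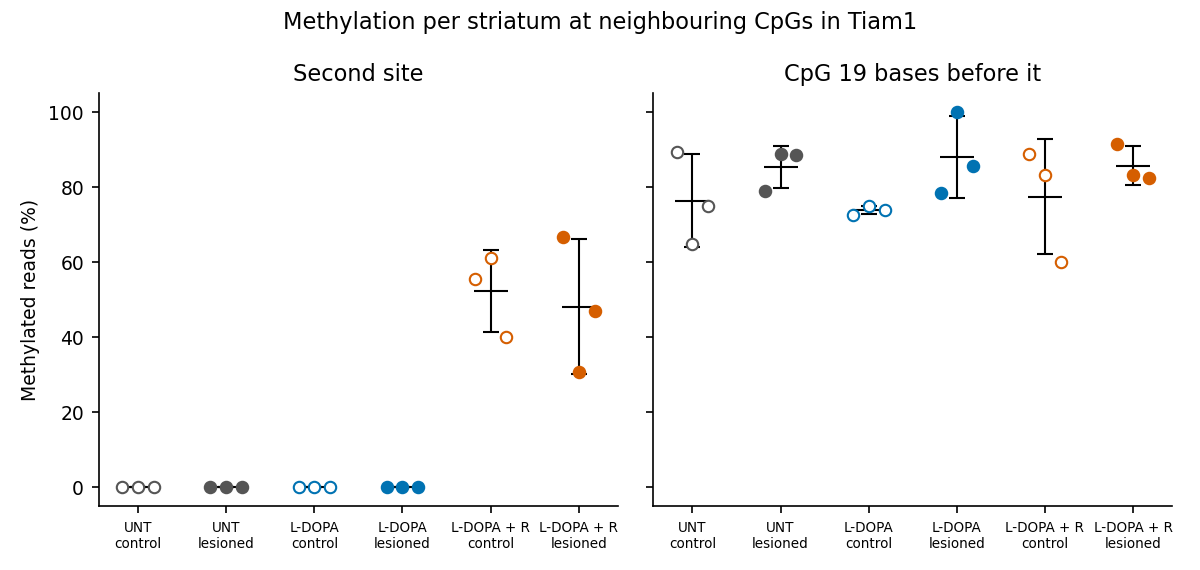
Methylation (percent of reads) of each striatum at the second site, 29986999, and at 29986980, the CpG 19 bases before it. Open points are control and filled points lesioned striata, and bars give the mean ± SD of 3 striata. All 12 UNT and L-DOPA striata are at 0 at the second site and the L-DOPA + R striata lie between 30.8% and 66.7%, while the groups overlap at its neighbour.

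The pattern of the second site was searched for over the whole data set. Of 556340 CpGs, 52485 had no methylated read in any covered UNT and L-DOPA striatum. In 4 of these, every covered L-DOPA + R striatum was at 30% or more, and the Tiam1 site was the 1 CpG with all of them between 30% and 70%, a band that was set with the values of this site known. The same search with another treatment in the place of L-DOPA + R found 4 CpGs at 30% or more for UNT and 2 for L-DOPA. Of these, 3 lay between 30% and 70% for UNT and 2 for L-DOPA. The CpGs outside the window with the pattern most like the second site were ranked by Pearson's r over the striata, as a description across 556280 CpGs. Of these, 9 had an r above 0.9. The first was chr9:2273876 (r = 0.968, 14 striata), which was at 0% in UNT and L-DOPA and at 54.5% to 90% in L-DOPA + R. It was followed by chr2:221650220 (r = 0.957, 12 striata), where L-DOPA + R reached no more than 16.7%, and chr16:14831126 (r = 0.952, 18 striata), where L-DOPA + R lay between 62.8% and 71.0%. The next were chr10:14095321 (r = 0.934, 15 striata), with L-DOPA + R at 41.7% to 59.3% and UNT at no more than 2.17%, and chr10:14604593 (r = 0.926, 18 striata). The points of each r share libraries and treatment.

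The first site, chr11:29963284, was at 30% of the reads in UNT and lower in L-DOPA + R. In UNT, the control striata of rats 1, 2 and 3 were at 16.7%, 25.8% and 34.6% and the lesioned striata at 28.3%, 28.2% and 40%. In L-DOPA, the control striata of rats 1 and 3 were at 45% and 19.4%, and the lesioned striata of rats 1, 2 and 3 at 20%, 26.3% and 18.2%. In L-DOPA + R, the control striata of rats 1, 2 and 3 were at 12.5%, 16% and 14.3%, and the lesioned striata of rats 2 and 3 at 10% and 5.56%. Among these striata, the highest of L-DOPA + R was below the lowest UNT and the lowest L-DOPA striatum, in UNT by less than 1 point. Summed over the reads, 60 of 200 were methylated in UNT (30%), 24 of 91 in L-DOPA (26.4%) and 12 of 111 in L-DOPA + R (10.8%). The difference of L-DOPA + R was -19.2 points to UNT and -15.6 points to L-DOPA. Between 10 and 46 reads were behind each striatum. The control striatum of L-DOPA rat 2, with 7 minus and 5 plus strand reads, and the lesioned striatum of L-DOPA + R rat 1, with 8 and 1, fell below the limit of 10 reads per cytosine. In the latter, 2 of the 8 minus strand reads were methylated, or 25%, which is above the lowest UNT and L-DOPA striata, and in the former 2 of 7 and 1 of 5 reads. The plus strand reached 10 reads in only 4 striata, none of them from L-DOPA + R, so that the L-DOPA + R values rest on the minus strand.

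The CpGs within 100 bases of the first site that were covered in L-DOPA + R were also lower there. At 29963275, 21.0% of the reads were methylated in UNT, 17.6% with L-DOPA and 7.21% with L-DOPA + R. At 29963300 the levels were 28.8%, 29.3% and 14.04%, at 29963347 38.9%, 39.1% and 28.4%, and at 29963356 37.9%, 45.7% and 28.0%. The CpGs 29963238 and 29963249 did not reach 10 reads in any L-DOPA + R striatum, and were at 38.3% and, on the plus and the minus strand, 15.5% and 25% of the reads of the other treatments. Over the stretch chr11:29963238-29963386, with 6 CpGs covered in all 9 rats, the UNT rats 1, 2 and 3 were at 35.0%, 28.5% and 30.04%. The L-DOPA rats were at 38.4%, 27.7% and 28.7%, and the L-DOPA + R rats at 17.3%, 20.5% and 18.9%. The means were 31.2% ± 3.39, 31.6% ± 5.88 and 18.9% ± 1.60 (SD, n = 3 rats), and the L-DOPA + R rats did not overlap with the rats of the other treatments.

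The next stretch, chr11:29963627-29963676, holds 5 CpGs and none of the 2 sites, but lies close to the first site. Here the UNT rats 1, 2 and 3 were at 36.8%, 28.0% and 34.3%, and the L-DOPA rats at 32.0%, 38.5% and 28.8%. The L-DOPA + R rats were at 17.4%, 22.3% and 24.002%, below all other rats. The means were 33.0% ± 4.51, 33.1% ± 4.91 and 21.2% ± 3.45 (SD, n = 3 rats). Of its CpGs, 29963644 was at 48.6% of 442 reads in UNT, 47.6% of 269 reads with L-DOPA and 26.8% of 231 reads with L-DOPA + R. At 29963646 the means over rats were 45.5% ± 3.46, 44.3% ± 5.30 and 27.6% ± 3.73. This stretch and the one before it were named after their values were seen, in comparisons that chose the sites. How many stretches of the whole data set separate the rats in this way was not analysed, and nothing is read from it.

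**Figure D3:**
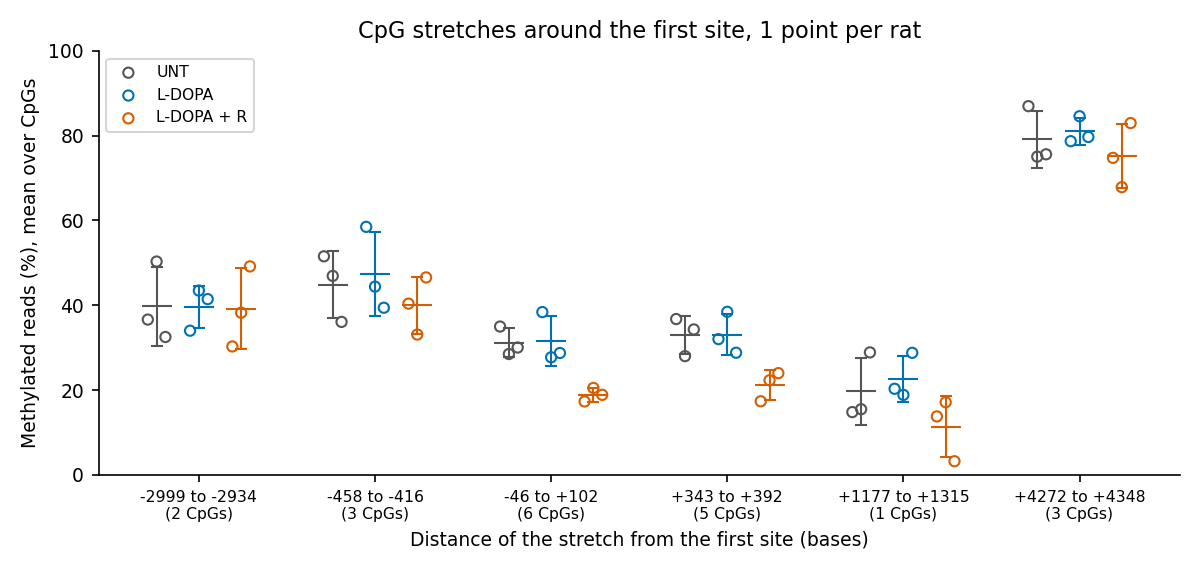
Mean methylation (percent of reads) over the CpGs of a stretch that were covered in all 9 rats, for 6 stretches in order of position, before and after the first site. Labels give the distance (in bases) from the first site, with 1 point per rat and bars for the mean ± SD of 3 rats. The L-DOPA + R rats lie below all other rats in the stretch that holds the first site and in the one after it, and the treatments overlap at the other stretches with more than 1 CpG.

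In the stretch after the first site, the lower level of L-DOPA + R was found mainly on the plus strand. At 29963644, plus strand reads were methylated at 53.4% in UNT, 58.6% with L-DOPA and 22.9% with L-DOPA + R, while minus strand reads were at 44.4%, 37.6% and 30.3%. At 29963666, plus strand reads were at 43.0%, 39.7% and 14.5%, and minus strand reads at 33.2%, 32.6% and 32.8%. The strands of one striatum could lie far apart. In the control striatum of L-DOPA + R rat 3, 0 of 20 plus strand reads and 10 of 18 minus strand reads were methylated at 29963644. In the control striatum of L-DOPA + R rat 1, none of the 16 minus strand reads and 3 of 15 plus strand reads were methylated there, and no minus strand read was methylated at any of the 5 CpGs of the stretch. In L-DOPA, the plus strand at 29963644 ranged from 33.3% to 93.8% between striata. In this stretch, the cytosines 49 bases past another called one stood apart in all treatments. The plus strand of 29963676, 49 bases past another cytosine, was at 3.93%, 4.86% and 1.71% in UNT, L-DOPA and L-DOPA + R, against 33.6%, 32.3% and 33.6% on the minus strand. Likewise the minus strand of 29963627, also 49 bases past a cytosine, was at 7.98%, 9.25% and 8.29%, against 30.2%, 36.2% and 14.02% on the plus strand.

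**Figure D4:**
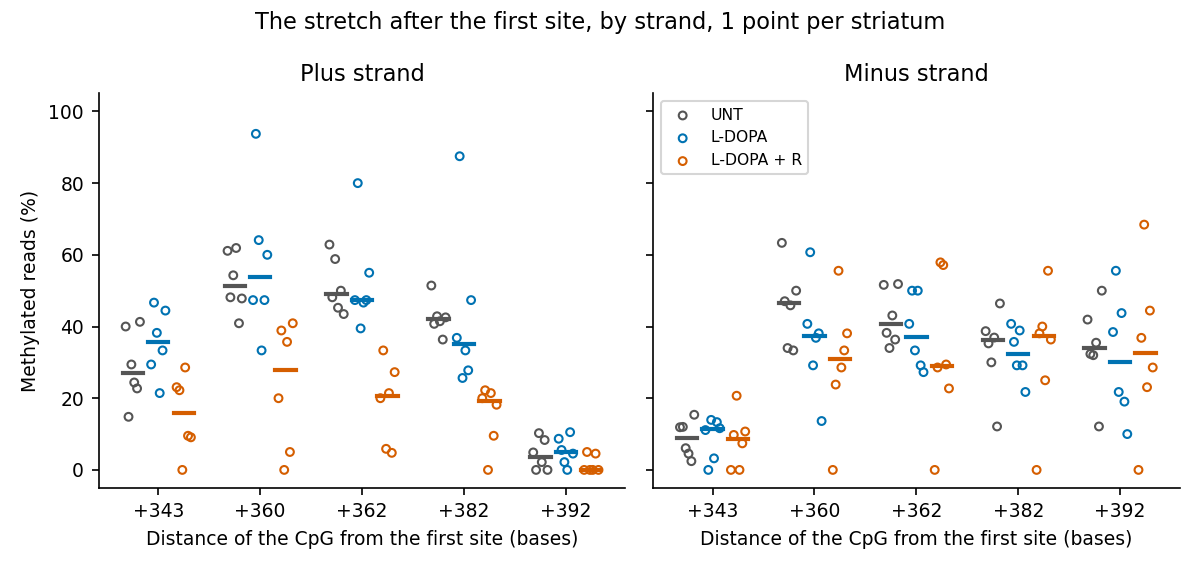
Methylation (percent of reads) of each striatum at the 5 CpGs of the stretch chr11:29963627-29963676 (distance from the first site in bases), separately for plus and minus strand reads, with short lines for the median of the 6 striata of a treatment. The L-DOPA + R medians are the lowest at all 5 CpGs on the plus strand, while the treatments overlap on the minus strand, and the last CpG on the plus strand and the first on the minus strand are low in every treatment.

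In some other stretches the L-DOPA + R mean was also the lowest of the 3, but by less and with an overlap of rats with at least 1 other treatment. At chr11:29960285-29960350 the means were 39.8% ± 9.32 in UNT, 39.6% ± 4.98 with L-DOPA and 39.2% ± 9.47 with L-DOPA + R (SD, n = 3 rats). At chr11:29962826-29962868 they were 44.8% ± 7.94, 47.4% ± 9.89 and 40.0% ± 6.74, and at chr11:29967556-29967632 they were 79.2% ± 6.72, 81.0% ± 3.14 and 75.2% ± 7.56. The rats of the 3 treatments overlapped in each of these. At chr11:29944078-29944272 the means were 67.8%, 62.3% and 57.2% in the same order, with L-DOPA + R rats at 42.8%, 60.2% and 68.6%. At chr11:29995458-29995513 they were 81.2%, 79.998% and 77.2%, and the L-DOPA + R rats, at 75.1%, 79.4% and 77.3%, were all below the UNT rats. At 29964461 the means were 19.7%, 22.7% and 11.4%, and all L-DOPA + R rats, at 13.8%, 17.1% and 3.23%, were below all L-DOPA rats. Leaving out the 2 sites and the CpGs within 100 bases of them, the mean over the 24 CpGs covered in all 18 striata, which include the stretch chr11:29963627-29963676, was 57.4% ± 3.96 in UNT, 56.2% ± 0.963 with L-DOPA and 52.6% ± 3.40 with L-DOPA + R. The difference of L-DOPA + R was -4.86 points to UNT and -3.69 points to L-DOPA, without a test. Without L-DOPA + R rat 1 these differences were -3.02 and -1.85 points. On plus strand reads alone these differences were -11.4 and -12.5 points, and on minus strand reads alone the one to L-DOPA turned to 0.178 points.

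The 2 sites are left out here, of which 29963284 was not called against UNT in this refit. No other CpG of the window was called at a Benjamini-Hochberg q under 0.01 in L-DOPA + R against UNT or against L-DOPA, with the striata of both sides and with each side alone. With both sides, 0.445% of all 643889 CpGs tested were called in L-DOPA + R against UNT and 0.0477% of 568416 in L-DOPA + R against L-DOPA. Within a side, the shares of all CpGs were 0.306% on the control and 0.287% on the lesioned side against UNT, and 0.0264% and 0.0284% against L-DOPA. Of the 64 other CpGs compared with UNT, 9 had an unadjusted p under 0.05, 7 of them lower in L-DOPA + R, where 9.52% of all CpGs had such a p and 6.58% in this direction. Of the 60 compared with L-DOPA, 10 had such a p, 8 of them lower, where it was 7.09% of all CpGs and 4.6% in this direction. The median difference of the window to UNT was -3.32 points, with 43 CpGs lower and 21 higher, beside a median of -0.265 points and 52.8% lower over all CpGs. The median difference to L-DOPA was -0.358 points, with 31 CpGs lower and 29 higher, beside a median of 0 and 49.6% lower over all CpGs. Among 56 CpGs with reads in the 6 rats, all L-DOPA + R rats were below all UNT rats at 7, which were 29963275, 29963300, 29963627, 29963644, 29963646, 29967556 and 29995499, and this was so for 6.94% of all CpGs. All L-DOPA + R rats were above all UNT rats at 2, 29983055 and 29992681, beside 2.72% of all CpGs. Compared with L-DOPA, all L-DOPA + R rats were lower at 8 of 48 CpGs and higher at 2, beside 5.08% and 2.9% of all CpGs. All these counts come from the comparisons that chose the sites, and neighbours of the sites are among them, so that they support nothing. In L-DOPA + R against UNT, the count of called CpGs was 2 without L-DOPA + R rat 1 (29963300 and 29963646), where 2399 of all 634483 CpGs were called, and 1 with the reads of both striata of a rat added up (29963646), where 3098 of all 643889 were. On the control side it was 1 without UNT rat 2 (29963300), where 1233 of all 462561 were.

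Within a side and leaving out the 2 sites, the CpG that the fit ranked first, given as a description, was 29963300 in L-DOPA + R against UNT on the control side, at 11.1% against 27.8%, and 29963644 on the lesioned side, at 30.1% against 47.4%. Against L-DOPA it was 29963644 on the control side, at 23.1% against 54.9%. On the lesioned side it was 29951593, at 97.7% in L-DOPA + R against 80% in L-DOPA, and thus in the other direction.

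For L-DOPA alone against UNT, no CpG of the window was called. Of 74 CpGs tested with both sides, 0 were called with the chi-square test and 0 with the F test, and 2 had an unadjusted p under 0.05 with the chi-square test, 1 in each direction. In simulated counts of this comparison, the chi-square test recovered 163 of 200 CpGs changed by 30 points and the F test 6. A 0 of the F test therefore says little. Over all 654563 CpGs, 0.351% were called with the chi-square test, or 464 of 593483 without cytosines 46 to 50 bases past a cytosine. Of all 654563 CpGs, 407 were called with the F test, and 7.37% had an unadjusted p under 0.05 with the chi-square test. The smallest p was found at 29972933, where all of the 51 L-DOPA reads and 92.2% of the 90 UNT reads were methylated, a difference of 7.78 points (logistic model, q = 0.437). The second site was at 0 in both groups, and at the first site the difference was -3.63 points. The first site is given without a test, since its UNT reads were part of its choice. Its direction turned on the plus strand and with 1 rat left out, as given in the closing section. On the control side, 0 of 45 CpGs were called, beside 0.255% of all CpGs, and 0 had an unadjusted p under 0.05, beside 6.99%. On the lesioned side, 0 of 52 were called, beside 0.237%, and 1 had an unadjusted p under 0.05, beside 7.04%. The smallest p was that of 29942294 on the control side (76.4% in L-DOPA, 87.9% in UNT, logistic model, q = 0.750) and of 29942313 on the lesioned side (86.0% and 97.6%, q = 0.519). All L-DOPA rats were below all UNT rats at 4 of 69 CpGs and above them at 0, beside 5.53% and 3.31% of all CpGs. The mean over the 24 CpGs outside the sites differed by -1.17 points for L-DOPA against UNT, with a two-sided p of 0.6 in the exact permutation test of 3 against 3 rats, which cannot go below 0.1. This difference was -0.462, 0.355 and -3.41 points without UNT rat 1, 2 and 3 and 1.12 points on the plus strand alone.

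The lesion was compared within each treatment, over 3 lesioned and 3 control striata of the same rats. No CpG was called in UNT (70 tested), L-DOPA (40 tested) or L-DOPA + R (32 tested), beside 0.00193%, 0.00101% and 0.00176% of all CpGs with the chi-square test. The counts include the second site, which could not be called in UNT and L-DOPA, since no read there was methylated. The F test called 0 CpGs in these comparisons over the whole data set too, so that its 0 says nothing of the window. An unadjusted p under 0.05 was found at 5, 6 and 1 CpGs, beside 6.45%, 5.4% and 6.29% of all CpGs. In UNT, the smallest p was at 29968824, with 88.6% in the lesioned and 98.7% in the control striata (logistic model, q = 0.484). In L-DOPA it was at 29942294, with 97.6% in the lesioned and 76.4% in the control striata (logistic model, q = 0.572). In L-DOPA + R it was at 29944215, with 76.8% in the lesioned and 58% in the control striata (logistic model, q = 0.762). At the second site, 47.6% of the reads of the lesioned and 54.3% of those of the control striata were methylated in L-DOPA + R, a difference of -6.73 points (logistic model, q = 1). At the first site, 32% of the reads of the lesioned and 26.7% of those of the control striata were methylated in UNT (logistic model, q = 0.992), and in the other treatments it was not covered in all 6 striata.

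As a single value, the mean over the 28 CpGs covered in all 18 striata was 52.96% in the lesioned and 53.36% in the control striata. The difference within a rat was -0.400 ± 3.59 points (SD, n = 9 rats), lower in 4 rats and higher in 5 (exact two-sided sign-flip permutation test, p = 0.727). It ranged from -5.77 points in L-DOPA rat 2 to 4.79 points in L-DOPA + R rat 1. Without L-DOPA rat 2 the difference was 0.272 points and without L-DOPA + R rat 2 it was 0.163 points, so that its direction rests on single rats.

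**Figure D5:**
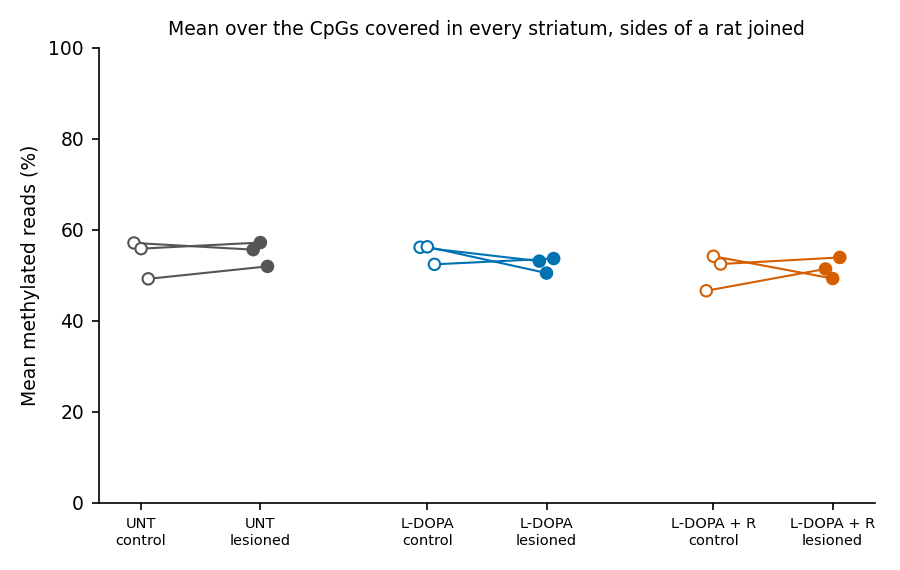
Mean methylation (percent of reads) over the 28 CpGs covered in all 18 striata, with the control (open) and the lesioned striatum (filled) of a rat joined by a line. Lines go up in 5 rats and down in 4, and the striata of all treatments lie between 46.6% and 57.2%.

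Whether a difference between treatments was another on the lesioned than on the control side was tested as an interaction at CpGs covered in all 12 striata. No CpG of the window was called, of 39 for L-DOPA against UNT, 30 for L-DOPA + R against UNT and 28 for L-DOPA + R against L-DOPA. Each of these counts includes the second site, where no call was possible. With the chi-square test, 0.000268%, 0% and 0.000658% of all CpGs were called, and with the F test 0 of all CpGs in each of the 3. An unadjusted p under 0.05 was found at 1, 2 and 2 CpGs, beside 6.05%, 6.44% and 6.12% of all CpGs. The smallest p was that of 29967556 for L-DOPA against UNT, where the difference was -7.94 points on the lesioned and 11.7 points on the control side (logistic model, q = 0.816). For L-DOPA + R against UNT it was that of 29962868, with -14.2 and 14.9 points (logistic model, q = 0.695), and for L-DOPA + R against L-DOPA that of 29982953, with -6.67 and 3.26 points (logistic model, q = 0.595). At the second site, the difference of L-DOPA + R to UNT was 47.6 points on the lesioned and 54.3 points on the control side. There the interaction could not be estimated, since UNT and L-DOPA had no methylated read.

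The range between rats of the same treatment was compared at CpGs covered in all 3 rats and 4 or more of the 6 striata of that treatment, and the 5 with the widest range are given. At 29999037 the L-DOPA + R rats were at 4.76%, 15% and 76.9%, with 10 to 13 reads per striatum. At 29977550 the UNT rats were at 18.8%, 54.8% and 88.9%, with 13 to 18 reads. At 29962826, which lies in the part with low levels before the first site, the L-DOPA + R rats were at 13.6%, 14.3% and 66.7%. At 29977558 the L-DOPA rats were at 40%, 59.3% and 92.9%, and at 29984001 the L-DOPA + R rats were at 26.9%, 57.1% and 65.2%. The smallest of these 5 ranges between rats was 38.3 points.

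The CpGs outside the window with the pattern most like the first site reached a lower likeness than those of the second site. Of 497286 CpGs compared over its 16 striata, 0 had an r above 0.9. The highest Pearson's r was 0.899 at chr18:5248480, where the median striatum was at 73.3% in UNT, 57.9% with L-DOPA and 54.5% with L-DOPA + R. It was followed by chr8:124375987 (r = 0.894), chr3:170730310 (r = 0.891), chr10:63970645 (r = 0.886) and chr5:28851225 (r = 0.883). At chr5:28851225 the median striatum was at 7.17% in UNT and at 0% in L-DOPA and L-DOPA + R.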

How the data were processed

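RRBS files of the control and lesioned striatum of 9 rats were used. According to the sample labels and the methods of the study, the authors trimmed the reads with Trim Galore 0.4.0 and mapped them to rn6 with Bismark. The authors deposited the coverage as the count of reads per CpG cytosine, strand by strand, from 1 read on and without normalization, and the percent methylated and unmethylated. Methylated reads were rebuilt from both and rounded to whole reads. With Python 3.11.15 (numpy 2.4.6, pandas 2.3.3, scipy 1.17.1, statsmodels 0.14.6, matplotlib 3.10.9), cytosines covered by 10 reads or more entered and strands were added up. Their median coverage ranged from 15 to 23 reads across striata, so that 1 read moves a level by several points.

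Each CpG of the whole data set was fitted with a logistic model with overdispersion (not below 1), tested with a chi-square test and adjusted over all CpGs (Benjamini-Hochberg), and called at q under 0.01. CpGs covered in 4 of 6 striata of each treatment were tested with both sides together, all 6 within a side or treatment, and all 12 for the interaction. With both sides together, each striatum counts as a sample although 2 come from 1 rat. The test was tested on simulated data. The series design states that both striata of each animal were analysed, and equal replicate numbers on the sides of a treatment were taken as 1 rat, which the labels do not state. Over all CpGs, the deviations from the group means of such striata correlated at 0.0534 on average (0.0314 to 0.104, 9 pairs), those of unequal numbers at -0.0789 to 0.0373, and 17 of 18 striata correlated best with their own number, a hint from the data and not from the design. Equal numbers in different treatments are different rats.

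The window, the sites and the lists were chosen with earlier results of these data known. Named CpGs were the 2 sites, those within 100 bases, those called in any fit, that with the smallest p in each fit, the 5 with the largest range between rats (of those covered in all 3 rats and 4 of 6 striata of a treatment) and the 5 outside the window most like each site. The CpGs of the stretches, of the low pair and of the counts of rats that did not overlap were named after their values were seen. The exact test planned for the window mean of L-DOPA + R is not reported, since its comparisons chose the sites. Other genes of the Rac pathway and the sequence of the window were not analysed here, since no rn6 annotation or genome was used. Alternatives tried were a 20-read minimum, each strand on its own, the F test, no overdispersion correction, a coverage limit that leaves out the highest 0.1%, leaving out cytosines 46 to 50 bases past a cytosine, a replicate block, the rat as the unit, CpGs in all 12 striata, and each rat left out. Leaving out rats in the fit of the interaction was added after seeing the data.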

Additional observations from a re-analysis of the deposited data

Results flagged for a closer look

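At 29963300 in L-DOPA + R, the lesioned striatum of rat 1 stood far from the other striata of its group, at 36.4% of 33 reads beside 6.98% to 13.8%. In this striatum only the plus strand reached 10 reads, while both strands entered in the others. At 29986980 in L-DOPA + R, the control striatum of rat 3 was at 60% of 10 reads, beside 82.4% to 91.7% in the others. In all, 26 groups were examined with Dixon's test at a 95% level, where chance alone marks about 1 in 20. They were groups of 4 to 6 striata and the window mean, lesioned minus control, of the 9 rats.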

How the results depend on the processing

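Of 192 counts of called CpGs under the alternatives, 183 stayed at the main count of 0. In L-DOPA + R against UNT with both sides, 2 CpGs were called with each strand on its own (29963646 and 29963666, plus strand, beside 1317 of all 717735 cytosines), 3 without the overdispersion correction (beside 7854 of all 643889 CpGs), 1 with the rat as the unit (beside 3098), and 0 to 2 with 1 rat left out. Without the overdispersion correction, 2 were called in L-DOPA + R against L-DOPA with both sides (beside 1621 of all 568416), 2 (beside 3647 of 454207) in L-DOPA + R against UNT on the control side, where leaving out 1 rat gave 0 to 1, and 1 (beside 628 of 378782) in L-DOPA + R against L-DOPA on the control side. The replicate block called 1 CpG (29963644, beside 289 of 378782) in the last of these and changed no other call, where equal numbers are different rats. Leaving out cytosines 46 to 50 bases past a cytosine called none in the window. Over the whole data set with both sides, it called 464 of 593483 in L-DOPA against UNT, where the main fit called 2300 of 654563. In L-DOPA + R against UNT it called 768 of 580913, where the main fit called 2867 of 643889. Of 200 other values, 189 kept their direction and their side of the threshold or moved by less than 1 SD between rats, 2 moved by more and 9 turned their direction. The window mean, lesioned minus control, was 0.848 points with 20 reads and ranged from -1.05 to 0.272 with 1 rat left out. Outside the sites, L-DOPA minus UNT was 1.12 points on the plus strand and -3.41 to 0.355 with 1 rat left out. The difference of L-DOPA + R was -11.4 points to UNT and -12.5 to L-DOPA on the plus strand, and 0.178 to L-DOPA on the minus strand. The difference of L-DOPA and UNT at 29963284 was 15 points on the plus strand, where 1 L-DOPA striatum was covered, and -8.69 to 2.65 with 1 rat left out. The cause was not tested in any of these. The median coverage of 15 to 23 reads and the 3 rats per treatment limit the precision.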
